A study of Vitis vinifera with 12 samples.

Results

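The gene models described here were measured in Flame Seedless grape berries. Their mean transcript levels changed little per step from 40 to 60 days after full bloom and were lower at 80 days. Single libraries before the fall could differ by more. The gene models were chosen by their measured levels, so this course is a description and not a result. The rule used log2(FPKM + 1), where FPKM counts the sequenced fragments of a gene model relative to its length and to the mapped total of the library. It asked for a mean difference between 80 and 60 days of at most -1, and for every 80-day value below every 60-day value. It further asked for differences from 40 to 50 and from 50 to 60 days within 0.5 in either direction, and for a mean of at least 3 FPKM at 60 days. Of 22580 identifiers in the table, 43 met it. These 43 are called the late-falling gene models below.

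The RNA came from fruit of 1 cultivar, a red table grape without developed seeds, sampled at 40, 50, 60 and 80 days with 3 libraries an age, lettered a, b and c. The labels separate the groups by age alone and name no treatment. Per the labels' protocols, RNA of biological replicates was extracted separately and then combined, so the spread between libraries may be technical. Fewer cells of a type and less RNA per cell cannot be told apart in such bulk samples.

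Grape berries first grow as green fruit, pause, and then ripen, when they soften, colour and store sugar. Many transcripts of the green berry are known to decline once ripening starts. The labels give days and no ripening stage, so the ages are not assigned to a stage here. The file pairs no identifier with a gene name or product, and 0 of 22580 matched the RefSeq table of 29591 genes. Neither a function nor a sequence is therefore given for any gene model, and the fruit label could not be checked against marker genes. In VIT_ identifiers the first number is the chromosome, with 00 for sequence not placed on one.

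The 12 libraries had summed FPKM of 971004 to 1212608, and 13166 to 14326 gene models reached 1 FPKM in each. The sequencing depth behind the values is unknown. On the first principal component of the 14579 gene models tested, with 60.0% of the variance, 60-day replicate c stood apart from its age at 10.6. Replicates a and b of 60 days were at 28.8 and 35.1, and the nearest 50-day library at -4.95. Without this library the median log2 difference between 80 and 60 days of the 43 gene models was -1.12 in place of -1.21, and 33 of them still had a fall of at least 1.

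With the band of 0.5, a flat start was less common among falls than among all gene models above the 3 FPKM minimum. The rule used all these values, and the 60-day mean enters both the band and the fall, so this is a description. Of the 11544 gene models with at least 3 FPKM at 60 days, 7890 (68.3%) stayed within 0.5 in both earlier intervals. Of the 297 that met the fall and the no-overlap condition, the 43 late-falling gene models were 14.5%. With bands of 0.25 and 0.75 this share was 5.72% and 29.97%. The other 254 of the 297 had moved by over 0.5 in an interval before 60 days. Of these, 161 had gone down by over 0.5 and never up by over 0.5. Another 51 had gone up by over 0.5 and never down by over 0.5, and 42 had done both. With the signs turned, 53 gene models were flat to 60 days and higher at 80 days, 21.4% of the 248 that met the turned conditions whatever their earlier course. Without 60-day replicate c they were 47. Only 3 gene models met every part of the rule except the no-overlap condition.

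**Figure D1:**
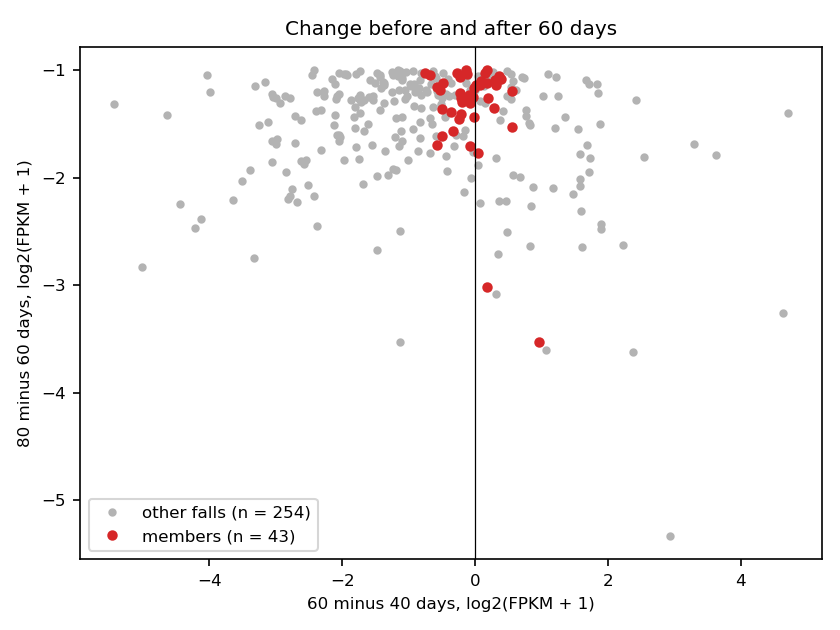
Mean difference between 60 and 40 days (horizontal axis) against that between 80 and 60 days (vertical axis), both in log2(FPKM + 1), for the 297 gene models that fell after 60 days. The 43 late-falling gene models (red) lie near 0 on the horizontal axis because the rule put them there, and all but 2 of them lie above -2 on the vertical axis.

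Many of the 43 falls lay close to the minimum of 1 set by the rule. The median difference between 80 and 60 days was -1.21 on the log2 scale, where the median of all tested gene models was 0.01. The rule sets this gap. In 21 (48.8%) of the 43 the fall was under 1.2, as it was in 78 (30.7%) of the other 254 falls. In 8 of the 43 it was at least 1.5. Falls of at least 2 were seen in 2 of the 43 and in 42 of the other 254, whose median was -1.35. In FPKM without a pseudocount, the late-falling gene models kept a median of 37.4% of their 60-day mean at 80 days, from 4.88% to 48.3%.

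All 43 passed the filter on low values (1 FPKM or more in 3 or more libraries) and so entered the fit across all gene models. By limma, with a Benjamini-Hochberg adjusted p below 0.05 and a minimum fall of 1 (log2), all 43 were called lower at 80 than at 60 days. The call was made in 2.08% of the gene models tested. The rule used this contrast, so nothing is read from the count. Without 60-day replicate c, 28 of the 43 were called.

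**Figure D2:**
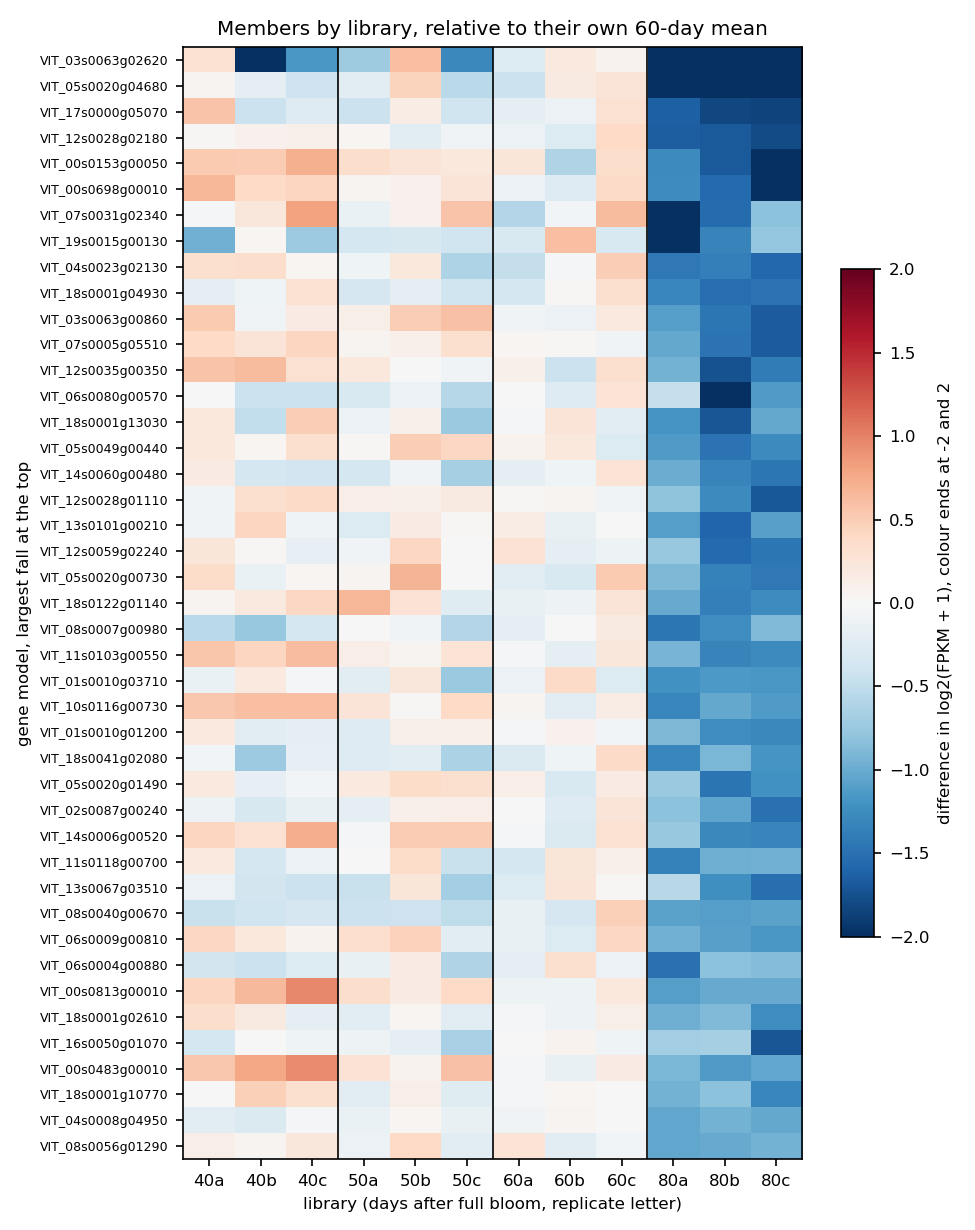
Level of each of the 43 late-falling gene models (rows, largest fall at the top) in each of the 12 libraries (columns), as the difference in log2(FPKM + 1) from the 60-day mean of the same gene model. Blue marks lower and red higher values, and the 80-day columns are blue throughout, while the 9 earlier columns are mostly pale. The top row, VIT_03s0063g02620, is the clearest exception, with blue cells in 40-day replicates b and c and 50-day replicate c.

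The largest fall was that of VIT_03s0063g02620, a gene model with an uneven start. Its levels at 40 days were 29.2, 5.04 and 9.92 FPKM in replicates a, b and c, and at 50 days 14.0, 36.4 and 9.004 FPKM. At 60 days they were 19.4, 27.2 and 24.7 FPKM, and at 80 days 0.617, 1.46 and 1.401 FPKM. The 80-day libraries were far below all the others, and the 40-day and 50-day libraries overlapped those of 60 days. The log2 difference between 80 and 60 days was -3.53 ± 0.558 (SE, n = 3 an age). Every SE given here is that of limma, from a spread shared over all 12 libraries and not from the compared ages alone. The 60-day mean was 0.96 ± 0.558 above that of 40 days, since its steps of 0.497 and 0.466 were both just inside the band. It no longer met the rule in any of the 5 other scalings and pseudocounts tried.

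VIT_05s0020g04680 had the next largest fall, and its age means before it were close. It stood at 64.3, 54.4 and 45.9 FPKM at 40 days, 52.5, 84.02 and 42.3 FPKM at 50 days, and 45.5, 69.8 and 73.8 FPKM at 60 days. At 80 days the levels were 12.99, 5.15 and 4.43 FPKM. The 80-day libraries lay below all 9 earlier ones, with replicate a above the other two. The log2 difference was -3.01 ± 0.353 (SE), and 11.9% of the 60-day mean was left.

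After these came a gap on the log2 scale, from -3.01 to -1.77. VIT_17s0000g05070 had 137, 67.3 and 76.5 FPKM at 40 days, and 67.99, 101 and 69.5 FPKM at 50 days. It stood at 79.7, 84.4 and 114 FPKM at 60 days and at 28.9, 25.1 and 24.7 FPKM at 80 days (-1.77 ± 0.247, SE). The highest of its 12 values was that of 40-day replicate a. VIT_12s0028g02180 was steadier, with 31.6, 32.9 and 33.2 FPKM at 40 days and 31.95, 26.7 and 29.5 FPKM at 50 days. It stood at 28.4, 25.5 and 41.03 FPKM at 60 days and fell to 9.19, 8.93 and 8.295 FPKM at 80 days (-1.71 ± 0.144, SE; -1.51 without 60-day replicate c). In both gene models the 80-day libraries lay close together and below every earlier library.

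**Figure D3:**
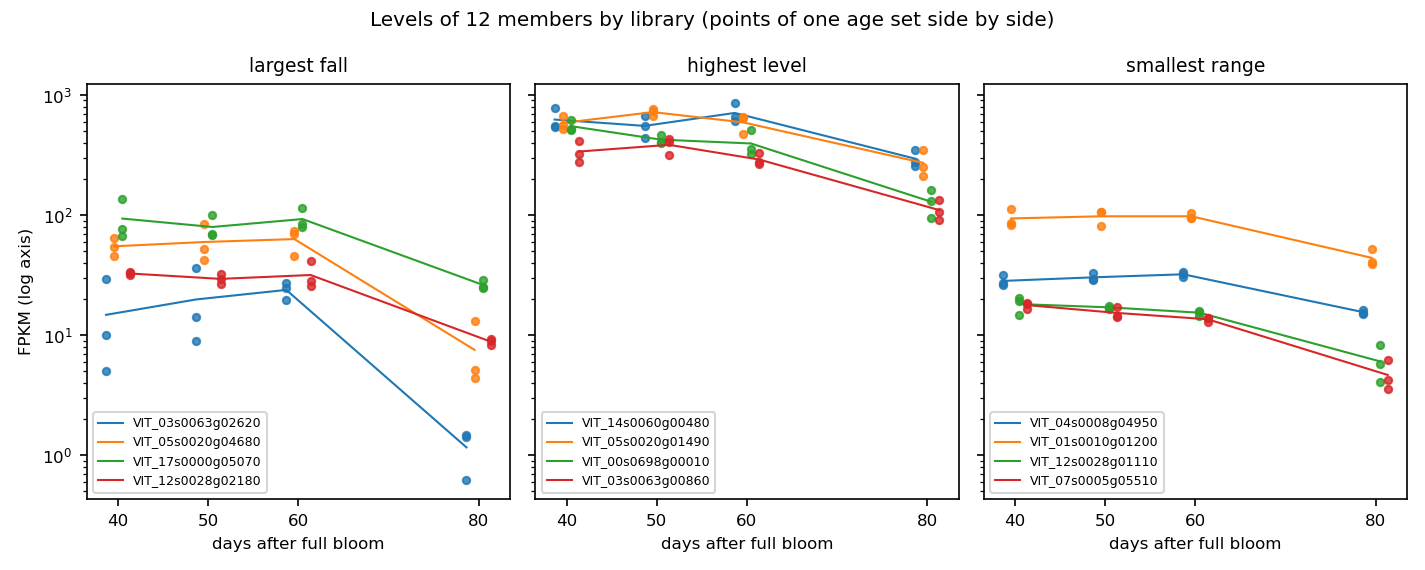
FPKM on a log axis against days after full bloom for 12 late-falling gene models, with 1 point a library and lines through the age means. The panels hold the 4 with the largest fall, the 4 with the highest 60-day mean and the 4 with the smallest range from 40 to 60 days. In the panel of highest levels, 80-day points sit between 90.5 and 351 FPKM, where the 60-day points sit between 265 and 852 FPKM.

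The median 60-day mean of the late-falling gene models was 12.7 FPKM, and that of the other 254 falls was close to it, at 12.2 FPKM. That of the 11544 gene models above the minimum of 3 FPKM was 19.5 FPKM. By 60-day mean, 17 had 3 to 10 FPKM, 20 had 10 to 100 FPKM and 6 had 100 FPKM or more. The median log2 fall was -1.17, -1.24 and -1.31 in these classes. In plain FPKM the order was turned: the median share left at 80 days was 33.3%, 39.2% and 40.04%. The pseudocount of 1 understates the change of low gene models. A fall of 1 with this pseudocount therefore asks for a smaller share left at low levels, so the rule in part sets this order.

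VIT_14s0060g00480 was the most abundant. It stood at 786, 548 and 539 FPKM at 40 days, 550.1, 668 and 441 FPKM at 50 days and 613, 662 and 852 FPKM at 60 days. At 80 days it was at 351, 278 and 256 FPKM, below every earlier library, and its log2 difference from 60 days was -1.26 ± 0.200 (SE), or -1.12 without 60-day replicate c. VIT_05s0020g01490 had 669, 522 and 564 FPKM at 40 days and was highest at 50 days, with 671, 758 and 731 FPKM. It had 645, 473 and 658 FPKM at 60 days and 351, 213 and 252 FPKM at 80 days (-1.13 ± 0.183, SE). At 60 days the levels of these abundant gene models overlapped, so their order is within the spread of the libraries.

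The next in level moved before 60 days within the band. VIT_00s0698g00010 went from 617, 512 and 523 FPKM at 40 days to 402, 409 and 463 FPKM at 50 days and 355, 322 and 506 FPKM at 60 days. Its 80-day levels were 162, 130.4 and 94.6 FPKM (-1.61 ± 0.199 against 60 days, SE; -1.42 without 60-day replicate c). Its 60-day replicate c lay above all 50-day values and just below the lowest 40-day value, and replicates a and b lay below all 50-day values. VIT_03s0063g00860 had 416, 274 and 324 FPKM at 40 days. It had 314, 407 and 432 FPKM at 50 days, 275, 265 and 331 FPKM at 60 days and 133, 106 and 90.5 FPKM at 80 days (-1.403 ± 0.185, SE).

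Summed over the 43, the 40-day level was 3301 ± 397 FPKM (SD, n = 3). Later sums were 3121 ± 221 FPKM (50 days), 3007 ± 447 FPKM (60 days) and 1174 ± 208 FPKM (80 days). In the order of the ages this made 0.320% ± 0.0322, 0.288% ± 0.0431, 0.301% ± 0.0525 and 0.101% ± 0.0134 of the summed FPKM of a library. The 5 most abundant members held 70.7% of the 60-day sum and 73.2% of the 80-day sum, so the sum mostly follows them. Without 60-day replicate c the 60-day sum of the 43 was 2755 FPKM. The remaining 38 summed to 882 FPKM at 60 days and 315 FPKM at 80 days.

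The steadiest courses before the fall were those with the smallest range of log2 values over the 9 libraries from 40 to 60 days. VIT_04s0008g04950 had a range of 0.35, with 27.1, 26.01 and 31.6 FPKM at 40 days, 29.2, 32.8 and 28.7 FPKM at 50 days and 30.4, 33.5 and 32.4 FPKM at 60 days. At 80 days it stood at 15.04, 16.2 and 15.2 FPKM, with a mean at 48.3% of that of 60 days (log2 difference -1.003 ± 0.0880, SE). It was steady in every age, and its fall was at the edge of the rule.

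VIT_01s0010g01200 had a range of 0.46 before the fall, with age means of 93.6 ± 16.1, 97.6 ± 14.2 and 97.6 ± 5.404 FPKM (SD, n = 3). At 80 days its libraries were at 52.1, 40.6 and 39.3 FPKM (-1.14 ± 0.147 against 60 days, SE). VIT_12s0028g01110 and VIT_07s0005g05510 had ranges of 0.46 and 0.501. The former went from 15.6, 15.97 and 14.5 FPKM at 60 days to 8.34, 5.76 and 4.04 FPKM at 80 days (-1.26 ± 0.190, SE). The latter went from 13.99, 13.8 and 12.9 FPKM to 6.17, 4.21 and 3.57 FPKM (-1.39 ± 0.148, SE). In each of these 3, 80-day replicate a was the highest of its age and still below every earlier library.

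At the fall threshold, VIT_04s0008g04950 (above) and VIT_08s0056g01290 were just inside. The latter had 13.3, 9.12 and 10.3 FPKM at 60 days and 4.72, 4.84 and 5.12 FPKM at 80 days, a log2 difference of -1.001. Just outside were VIT_14s0219g00210 at -0.997 and VIT_01s0026g01050 at -0.991. In VIT_14s0219g00210 the 60-day levels were 5.29, 8.59 and 6.897 FPKM and the 80-day levels 4.87, 1.83 and 2.61 FPKM. At the edges of the band for flatness, members reached from -0.447 to 0.497 from 40 to 50 days and from -0.399 to 0.466 from 50 to 60 days. The nearest falls outside it were at -0.505 and 0.542 in the former interval and at -0.507 and 0.570 in the latter.

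The 43 did not all start equally level. The difference between 60 and 40 days, which the rule limits to 1 in either direction through its steps, ran from -0.76 to 0.96 with a median of -0.07. It was within 0.25 in 24 of the 43. In 5 gene models it was between -0.5 and -0.25, in 6 below -0.5, and in 8 above 0.25, of which 3 were above 0.5. By limma, 0 of the 43 were called between 40 and 60 days, where the call in either direction took in 13.3% of the gene models tested. At an unadjusted p below 0.05 with no minimum difference, 11 of the 43 (25.6%) passed, against 54.4% of all tested gene models. The band nearly fixes both counts.

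The highest age mean was at 40 days in 21 of the 43, at 50 days in 7 and at 60 days in 15. In 13 (30.2%) the means went down at every step, as they did up to 60 days in 26.3% of all tested gene models, and in 9 they went up at every step before the fall. Since the band fixes the earlier steps as small, a median of 94.6% of the log2 fall from 40 to 80 days was made after 60 days.

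All 4 late-falling gene models with the number 00 went down at every step, and they were 4 of the 6 that were over 0.5 lower at 60 than at 40 days. This group was singled out after its values were seen. VIT_00s0813g00010 went from 169 ± 31.7 FPKM (SD, n = 3) at 40 days to 129 ± 10.7, 104 ± 13.5 and 49.98 ± 2.07 FPKM at the later ages. VIT_00s0483g00010 went from 30.97 ± 4.45 to 22.6 ± 4.27, 17.9 ± 2.07 and 8.26 ± 0.694 FPKM. VIT_00s0153g00050 went from 139.8 ± 11.4 to 113 ± 5.37, 96.99 ± 31.3 and 28.9 ± 8.79 FPKM. VIT_00s0698g00010, described above, is the fourth. With a band of 0.25, 0 gene models with the number 00 met the rule, and 2 met it without 40-day replicate a.

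Against the ages that the fall itself did not use, the 80-day level was low as well, which the band largely fixes. By limma, 34 of the 43 were called lower at 80 than at 40 days, where 14.0% of all tested gene models were, and 31 were called lower at 80 than at 50 days, where 5.80% were. The 80-day libraries lay below all 3 of 40 days in 42 of the 43 (33.2% of all tested gene models) and below all 3 of 50 days in 41 (24.0%). They lay below all 9 earlier libraries in 40 of the 43 (10.6%). The median log2 difference was -1.34 from 40 days, -1.29 from 50 days and -1.21 from 60 days. These comparisons share the 80-day libraries.

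The 3 gene models whose 80-day libraries overlapped earlier ones had low levels. VIT_19s0015g00130 had 1.85, 4.69 and 2.36 FPKM at 40 days, 3.499, 7.45 and 3.498 FPKM at 60 days and 0.000643, 1.21 and 2.24 FPKM at 80 days. VIT_06s0080g00570 had 4.51, 3.63 and 5.67 FPKM at 60 days and 3.04, 1.12e-06 and 1.53 FPKM at 80 days. In each of them 1 library of 80 days was listed close to 0 while another stood above 2 FPKM. Without that library, the log2 difference between 80 and 60 days was -1.05 instead of -1.53 in the former and -0.79 instead of -1.35 in the latter. VIT_13s0067g03510 had 2.23, 4.2 and 1.74 FPKM at 50 days, 2.65, 4.26 and 3.45 FPKM at 60 days and 2.01, 0.887 and 0.554 FPKM at 80 days. Without its lowest 80-day library, replicate c, its log2 difference between 80 and 60 days was -0.89 instead of -1.09.

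Libraries of an age differed in the same order over many of the 43. All 12 values of a gene model entered the rule, so these shares are a description. The 50-day replicate b was the highest of its age in 27 (62.8%) of them, against 33.9% of all tested gene models. The 60-day replicate c was the highest in 26 (60.5%, against 35.1%), and 80-day replicate a in 25 (58.1%, against 29.7%). Over all tested gene models, the share in which a given library was the highest of its age ran from 27.96% to 40.4% across the 12 libraries.

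The median over the 43 of the difference from the 60-day mean was 0.18 in 60-day replicate c, and -0.08 and -0.10 in replicates a and b. At 80 days it was -1.07 in replicate a, -1.33 in replicate b and -1.28 in replicate c. Over all tested gene models these medians lay between -0.02 and 0.02 in the 12 libraries. Replicates b of 50 days and c of 60 days had the lowest summed FPKM of their ages, 1001327 and 971004, and replicate a of 80 days had the highest of its age, 1212608. The part of these sums in the order was not tested. The shares depended on the setting. After removal of the top 10 by abundance and rescaling, 50-day replicate b was the highest in 38.2% of the gene models that met the rule. With equal library sums the highest were 50-day replicate b in 72.5%, 60-day replicate c in 72.5% and 80-day replicate a in 50% of those that met it.

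**Figure D4:**
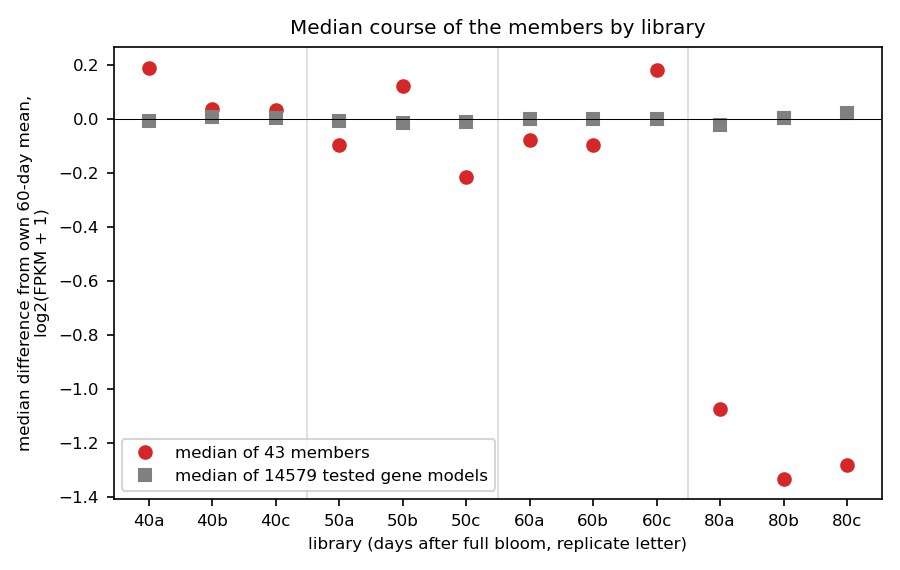
Median difference from the own 60-day mean, in log2(FPKM + 1), in each of the 12 libraries for the 43 late-falling gene models (red circles) and for the 14579 tested gene models (grey squares). Red circles of 80 days lie between -1.33 and -1.07, those of earlier ages between -0.22 and 0.19, and grey squares near 0 throughout.

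The spread between libraries of an age was as follows. The median SD over the 43 of log2(FPKM + 1) went from 0.20 in the 40-day libraries over 0.24 and 0.26 to 0.28 in the 80-day libraries. Over all tested gene models it was 0.14, 0.14, 0.14 and 0.16, lower at each age. No test was made of this difference, since the members were chosen on the same values.

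The late-falling gene models were scattered over the identifiers. They carried 18 different first numbers, with 6 of the 43 on 18, 4 each on 00, 05 and 12, and none on 09 or 15. The number 18 was held by 13.95% of them and 7.31% of all tested gene models, and 00 by 9.302% and 7.003%. None of the 332 tested gene models labelled as new, 2.28% of all tested, was among them. No 2 of the 43 were neighbours in the order of tested identifiers, which says little for so few among all tested. In 5 blocks of identifiers, 13 of them shared a block, and the closest pair was 46 tested identifiers apart, in VIT_05s0020.

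Of the 79 tested identifiers next to a late-falling gene model in the same block, limma called 0 lower at 80 than at 60 days, where 2.08% of all tested gene models were called, and nothing is read from this count. At an unadjusted p below 0.05, 14 (17.7%) were lower, against 16.7% of all tested gene models. Of the 79, 6 (7.59%) had a fall of at least 0.5, against 10.8% of all tested gene models. The median difference of the neighbours between 80 and 60 days was -0.05, and the lowest was -0.72.

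Membership rested on the settings for many of the 43. Over the 12 settings that each left out 1 library, 16 of the 43 met the rule every time. The rule was met by 35 gene models without 60-day replicate c, 32 of them among the 43. It was met by 62 without 50-day replicate c, 40 of them among the 43. With the FPKM of every library scaled to the same sum, a setting added after the data were seen, 80 met it, 39 of them among the 43. This scaling moved the median difference of all tested gene models between 80 and 60 days from 0.01 to -0.17, so the falls found with it include that shift.

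**Figure D5:**
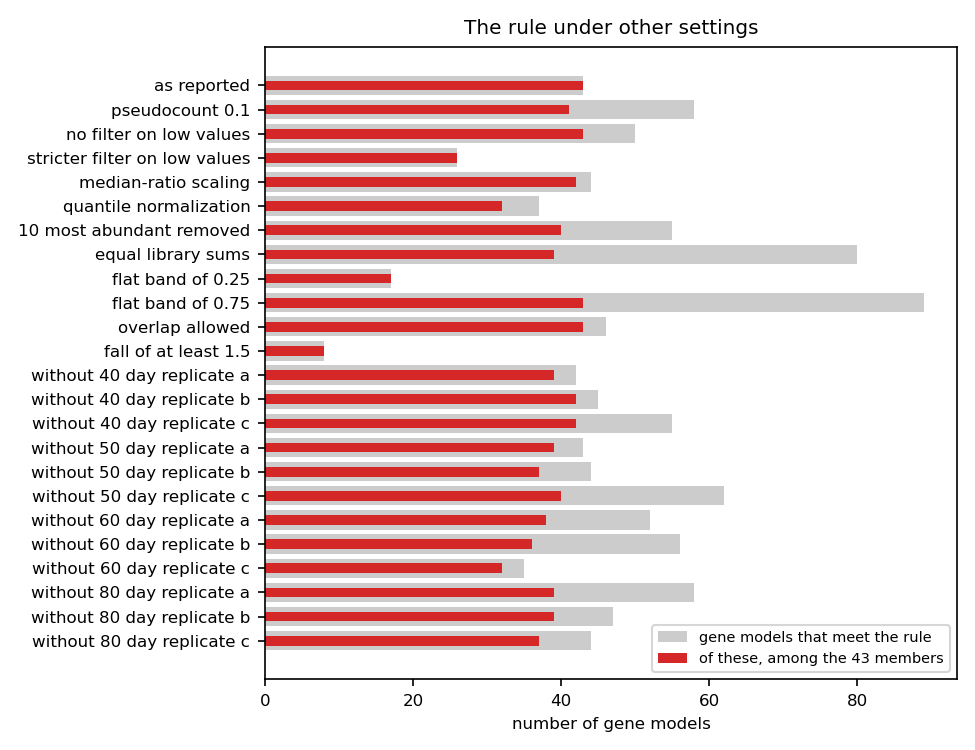
Number of gene models that met the rule as reported and under other settings (grey bars), and how many of them were among the 43 (red bars). The counts run from 8 with a fall of at least 1.5 to 89 with a band of 0.75, and 16 of the 43 were kept in every setting that left out a library.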

How the data were processed

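The authors deposited 1 table of FPKM values for 22580 identifiers and 12 libraries. Tools named in the submitters' processing notes, with no role for any, are Trimmomatic 0.36, FastQC, TopHat2, Cufflinks and edgeR. A statement on genome build, annotation or filters is not given in the sources used here. The libraries were directional and made from polyadenylated RNA, per the labels' protocols. Columns were matched to samples through the library code in the labels.

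The rule was applied to log2(FPKM + 1) of all identifiers. The 14579 gene models that reached 1 FPKM in 3 or more libraries were fitted with limma 3.58.1 (R 4.3.3), with a mean per age over the 12 libraries, a trended prior variance and Benjamini-Hochberg adjustment. The other computations used Python 3.11.15. The fit and the rule were tested on simulated data. Depth is unknown, so no counting interval is given.

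The members and lists were chosen with earlier results of these data known. Identifiers printed are the 4 members with the largest fall, the 4 with the highest level, the 4 with the smallest range from 40 to 60 days and those next to the fall threshold. Others were added after their values were seen. Gene lists by product name were planned and not used, since no identifier carries a name.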

Additional observations from a re-analysis of the deposited data

How the results depend on the processing

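The median log2 difference of the gene models that met the rule was -1.21. It stayed within 1 SD of the 80-day libraries of this value in the settings run, except a fall of at least 1.5, which sets it to -1.702. With the reported 43 held fixed, it was -1.12 without 60-day replicate c. Gene models that met the rule were chosen again in each setting under its minimum fall, so the rule largely fixes this median. Their number, 43, went to 26 with a mean of at least 10 FPKM at 60 days, to 17 and 89 with bands of 0.25 and 0.75, to 8 with a fall of at least 1.5 and to 80 with equal library sums. Leaving out single libraries gave 35 to 62. The share of falls that were flat before, 14.5%, was 5.72% and 29.97% with these bands and 7.14% with a fall of at least 1.5, and ran from 14.1% to 20.9% over left-out libraries. The mirrored count of 53 went to 34, 17, 100, 16 and 31 in the same settings. Bands, minimum and fall change the rule itself, and for the other settings the cause was not tested.

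Calls lower at 80 than at 60 days numbered 303 over all tested gene models, 597 with a pseudocount of 0.1, 477 with equal library sums and 1366 without a minimum difference. Over left-out libraries they ran from 181 (60-day replicate c) to 341 (60-day replicate b). With a block for the replicate letter it was 301, with all 43 among the calls. Deviations of same-letter libraries from their age means correlated from -0.298 to 0.249, over 0.1 in 4 of 18 pairs. Between libraries of different letter and age the range was -0.247 to 0.408, over 0.1 in 7 of 36 pairs. These values gave no sign that the letters pair the libraries. Of the 13 members named by the rule, 3 had log2 differences that moved by more than 1 SD of their libraries: VIT_03s0063g02620 went from -3.53 to -4.31 with a pseudocount of 0.1, and VIT_04s0008g04950 and VIT_01s0010g01200 went from -1.003 and -1.14 to -1.198 and -1.34 with equal library sums.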
